A study of Glycyrrhiza uralensis with 24 samples.

Results

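Roots and aerial parts of unsalted Glycyrrhiza uralensis seedlings were compared, from the 3 root control libraries and the 3 aerial control libraries among the 24 RNA-seq libraries of the series. Glycyrrhiza uralensis is a licorice species of the legume family. The libraries were chosen by their labels alone, as the samples of either organ that received no NaCl. Both groups hold 60-day-old seedlings labelled with distilled water as the treatment, sampled at 0 h. The aerial group is labelled stems and leaves, so 2 organs were pooled in it. The labels give no genotype or cultivar and do not say whether a library came from 1 plant or several, or whether a root and an aerial library came from the same plants. The p-values of single genes therefore rest on the spread between libraries of a group, estimated over all 24 libraries. Whether this is a spread between plants is unknown. The other 18 libraries, 9 for each organ, were taken after 2, 6 or 12 h in 150 mM NaCl and serve here to estimate the spread and as separate samples of the same 2 organs.

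Roots and shoots of a land plant divide their work. Leaves and green stems fix carbon by photosynthesis in chloroplasts, while roots take up water and mineral ions and, in legumes, can host nitrogen-fixing bacteria. In licorice the roots and rhizomes are the organs harvested as a drug, since the sweet triterpenoid saponin glycyrrhizin collects there, and flavonoids such as liquiritin are the other main group of active compounds. The files give each gene by an identifier and do not pair these IDs with gene names, so neither the organ labels nor these processes could be checked against known marker genes. What follows describes how many IDs differed, by how much and at which levels, with 4 IDs given in full.

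Levels are in TPM, a share of the transcripts of a library that is scaled by length and can therefore be compared between genes. The listed IDs summed to between 47.3% and 51.1% of the full TPM scale in the 6 control libraries; where the rest of the scale lies was not tested. Of 34445 IDs, 10660 were listed at 0 in all 6 libraries. The libraries fell by organ. Over 16718 genes, log2(TPM + 1) correlated at 0.86 to 0.88 between aerial controls and at 0.84 to 0.90 between root controls, against 0.61 to 0.69 across the organs. Each control also resembled every salt library of its own organ (0.76 to 0.89 over 54 pairs) more than any of the other organ (0.54 to 0.67). These are correlations across genes, which are not independent replicates.

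Roots and aerial parts differed in the levels of 5272 of 16718 genes tested, or 31.5%, by limma on log2(TPM + 1) at a Benjamini-Hochberg adjusted p under 0.05. Of these, 2860 genes (17.1% of those tested) were higher in roots and 2412 (14.4%) were higher in aerial parts. Whole organs were extracted, so fewer cells of a type and less RNA per cell cannot be told apart. The median difference among the root-higher genes was 1.61 on the log2 scale, and its quartiles were 1.08 and 2.46. Among the aerial-higher genes it was -2.10, with quartiles of -3.22 and -1.43. For 93.9% of the called genes every library of one organ lay above every library of the other, against 40.8% of all genes tested. The genes were called on these same libraries, so the higher share follows in part from the call and is no separate evidence. The median over all genes tested was 0.11 towards roots, and 0 with median-of-ratios scaling, a shift that turned the larger count. Under that scaling 2273 genes were higher in roots and 2658 in aerial parts. Without aerial control 2 the counts were 2247 and 2252.

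**Figure D1:**
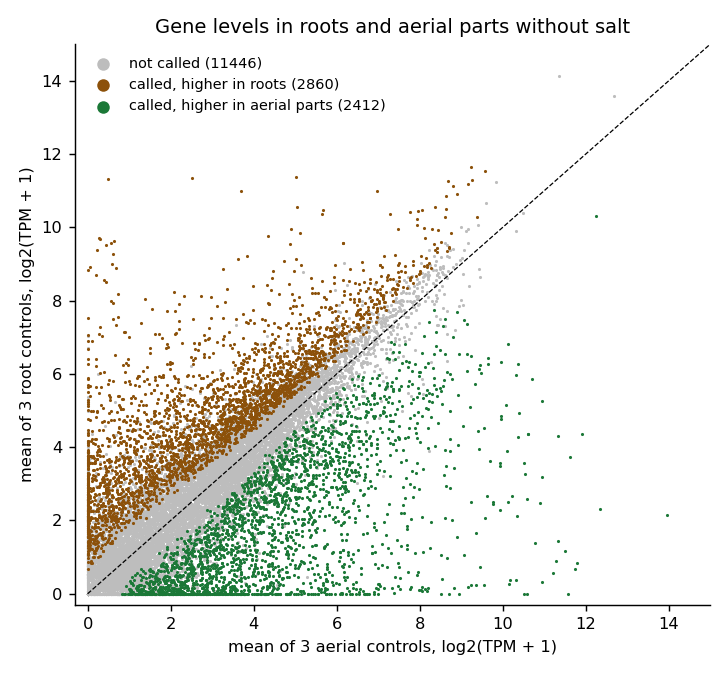
Mean level of each of the 16718 genes tested in the 3 aerial controls (horizontal axis) and the 3 root controls (vertical axis), both as log2(TPM + 1), with genes called higher in roots in brown, called higher in aerial parts in green and not called in grey. The dashed line marks equal levels, and the 2412 green points reach farther from it than the 2860 brown ones at the highest levels.

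The genes higher in aerial parts differed by more, and in the main fit were fewer, though in 3 of the 19 alternatives they were more. At a difference of at least 2-fold the counts were close, with 2268 genes higher in roots and 2202 higher in aerial parts. From 4-fold upwards the aerial genes outnumbered the root genes, at 1290 against 1045. At 32-fold or more there were 215 aerial-higher genes and 87 root-higher genes, and at 256-fold or more 33 and 13. These folds are on the log2(TPM + 1) scale, where the added 1 shrinks the difference of genes near 0. The numbers past a given fold therefore moved with the added value, as from 215 and 87 to 536 and 335 at 32-fold with 0.1 in place of 1. The order did not: at 4-fold and at 32-fold the aerial count was above the root count in each of the 19 alternative fits. When limma's test was set against a 2-fold minimum in place of no difference, 1083 genes passed as higher in aerial parts and 677 as higher in roots.

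**Figure D2:**
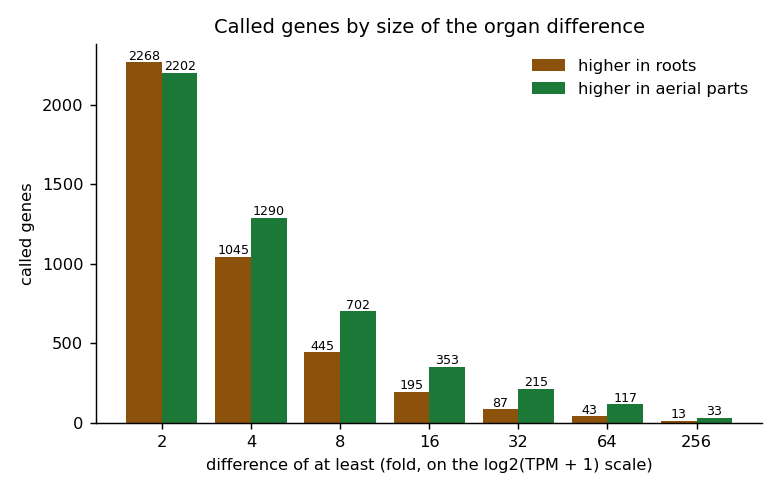
Number of called genes (vertical axis) whose difference between organs reached at least the fold on the horizontal axis, for genes higher in roots (brown) and higher in aerial parts (green). The classes are nested, so a gene past 32-fold is counted in each class to its left. The 2 directions are nearly level at 2-fold, and green stands above brown from 4-fold on.

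The share of genes called rose with their level. Of genes with a mean under 1 TPM over the 6 controls, 5.97% were called, and of those between 1 and 10 TPM, 27.5%. Of genes between 10 and 100 TPM, 43.4% were called, and of the 899 genes at 100 TPM or more, 58.7%. The typical standard error of the difference was 0.49 and 0.50 in the lower classes and 0.35 and 0.33 in the upper ones, so the precision moved with the level too. Its part in the share of calls was not tested. At the highest level 305 genes were higher in roots with a median difference of 1.54, and 223 were higher in aerial parts with a median of -4.11 on the log2 scale. On this scale the added 1 limits the difference that a gene of low mean can show, so the sizes of the low classes were not read against those of the high ones.

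**Figure D3:**
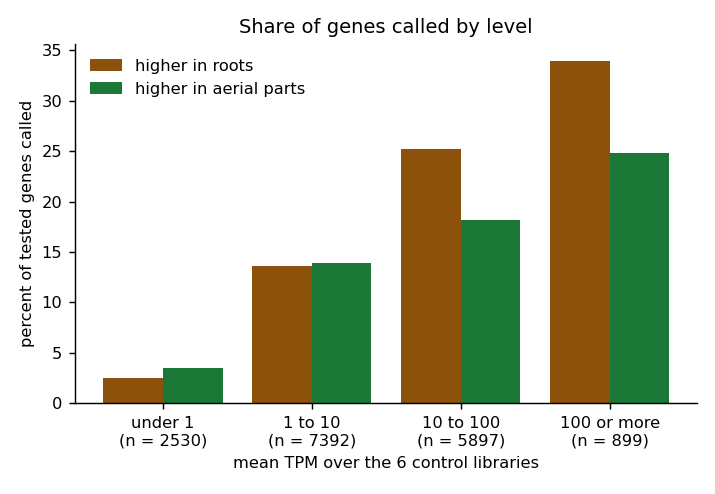
Percent of tested genes called higher in roots (brown) or higher in aerial parts (green) by their mean TPM over the 6 control libraries, with the number of genes tested in each class on the horizontal axis. Both shares rise with level, to 33.9% and 24.8% at 100 TPM or more.

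The most abundant transcripts of the 2 organs were largely different ones. Of the 100 IDs with the highest mean in aerial controls and the 100 with the highest mean in root controls, 20 were shared, which is 20% of each list. Of the aerial list, 74 were called higher in aerial parts and 5 higher in roots, against 24.8% and 33.9% of all genes tested with a mean of 100 TPM or more over the 6 controls. The median ID of that list stood at 893 TPM in aerial parts and 22.4 TPM in roots, and 36 of the 100 had a mean under 10 TPM in roots. Of the root list, 71 were called higher in roots and 1 higher in aerial parts. Its median ID stood at 770 TPM in roots and 298 TPM in aerial parts, and 10 of the 100 had a mean under 10 TPM in aerial parts. The lists were ranked on these same libraries, so their counts describe the libraries and are no separate evidence of the difference.

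The genes called in each direction made up a large part of the listed TPM of their organ, which is itself 47.3% to 51.1% of the full scale. The 2412 aerial-higher genes held 48.4%, 49.99% and 41.5% of the listed TPM in aerial controls 1, 2 and 3, and 4.34%, 4.62% and 3.82% in root controls 1, 2 and 3. The 2860 root-higher genes held 48.4%, 46.2% and 42.9% of it in the root controls and 11.8%, 11.8% and 14.8% in the aerial controls. The root-higher genes thus kept a larger part of the listed TPM in the organ where they were lower. The genes were chosen on these libraries, so the shares are a description.

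The number of IDs present and the concentration of the listed TPM were not told apart between the organs. IDs above 0 numbered 17276 ± 163 (SD, n = 3) in aerial parts and 17030 ± 212 in roots, and IDs at 1 TPM or more 12821 ± 343 and 12700 ± 188. The 100 most abundant IDs of each library held 30.4% ± 3.0 of the listed TPM in aerial parts and 27.8% ± 4.39 in roots. In two-sided exact permutation tests of 8 such library summaries, the adjusted p ran from 0.686 to 1. With 3 libraries against 3 the smallest unadjusted p that can be reached is 0.1, so no summary could have passed. Root control 3 was the most concentrated, with 16.7% of its listed TPM in its 10 highest IDs, against 7.12% to 12.1% in the other 5 libraries. Its highest ID, Glyur000183s00013015, was singled out after the values were seen and held 8.51% of the listed TPM of that library. It stood at 298.45, 3206.21 and 4399.10 TPM in aerial controls and at 3989.84, 7160.51 and 42746.40 TPM in root controls. The groups overlapped, and the difference of 2.73 (SE 1.14, 95% interval 0.34 to 5.11, limma adjusted p = 0.0778) was not called.

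The largest difference among IDs present in all 6 libraries belonged to the most abundant ID of the aerial parts. Glyur000604s00024572 stood at 21672.25, 12932.41 and 13077.96 TPM in aerial controls and at 3.04, 4.96 and 2.36 TPM in root controls. Every aerial library lay far above every root library, a difference of -11.80 on the log2 scale (SE 0.56, limma adjusted p = 3.01e-12). It ranked first of all IDs by mean in aerial controls. In salt it stayed between 7421 and 27419 TPM in the 9 aerial libraries and between 1.83 and 16.3 TPM in the 9 roots, so the organs did not come near each other at any time.

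The most abundant of the other aerial-higher IDs at least 4-fold different, without overlap and present in all 6 libraries, followed the same pattern. Glyur000472s00019569 stood at 4845.26, 6887.90 and 3725.71 TPM in aerial controls and at 7.15, 2.77 and 1.88 TPM in root controls (-10.13, SE 0.50, limma adjusted p = 5.68e-12). All 3 aerial libraries were far above all 3 roots, and the ID had the third highest mean in aerial controls. In salt it lay between 1233 and 6302 TPM in aerial parts and between 0.48 and 5.40 TPM in roots. The organ difference of both IDs was not called to change with salt, with limma adjusted p of 0.694 and 0.961.

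The largest root-higher difference among called IDs without overlap and present in all 6 libraries was that of Glyur001780s00035664. It stood at 0.30, 0.12 and 0.68 TPM in aerial controls and at 803.42, 420.91 and 957.70 TPM in root controls (9.00, SE 0.98, limma adjusted p = 6.21e-07). Both groups were well apart, with root control 2 the lowest of the roots. The aerial values lay below the added 1, so the size moved with it, to 10.7 with 0.1 and 7.01 with 5. In salt the roots stood lower, at 222 ± 50.2 TPM at 2 h, 317 ± 75.2 at 6 h and 66.8 ± 46.0 at 12 h (SD, n = 3), while aerial libraries ranged from 0.28 to 11.4 TPM at 2 h, from 0.08 to 37.9 TPM at 6 h and from 0.29 to 0.52 TPM at 12 h. The organ difference averaged over salt was 5.39, a change of -3.61 from controls (SE 1.13) that was not called (limma adjusted p = 0.151).

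Among root-higher IDs at least 4-fold different, without overlap and present in all 6 libraries, Glyur001793s00029326 was the most abundant. Glyur001793s00029326 was also abundant in aerial parts. It stood at 4211.45, 3318.27 and 1993.10 TPM in root controls and at 587.69, 490.60 and 728.21 TPM in aerial controls (2.35, SE 0.38, limma adjusted p = 7.69e-05). The groups did not overlap, although the roots spread widely and root control 3 was the lowest. It ranked 3 by mean in roots and 76 in aerial parts. Both organs stood lower after 2 h of salt, at 497 ± 315 TPM in roots and 134 ± 53.9 TPM in aerial parts (SD, n = 3). At 6 h they stood at 1658 ± 203 and 408 ± 86.9 TPM. The organ difference was called at 2 h (1.80, limma adjusted p = 0.00114) and at 6 h (2.04, limma adjusted p = 0.000366). At 12 h the organs were at 636 ± 128 and 363 ± 42.1 TPM, where the difference of 0.79 was not called (limma adjusted p = 0.124). Averaged over salt the organ difference was 1.54, a change of -0.81 from controls (SE 0.44) that was not called (limma adjusted p = 0.441). Whether the difference at 12 h alone differed from that in controls or at the other times was not tested.

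**Figure D4:**
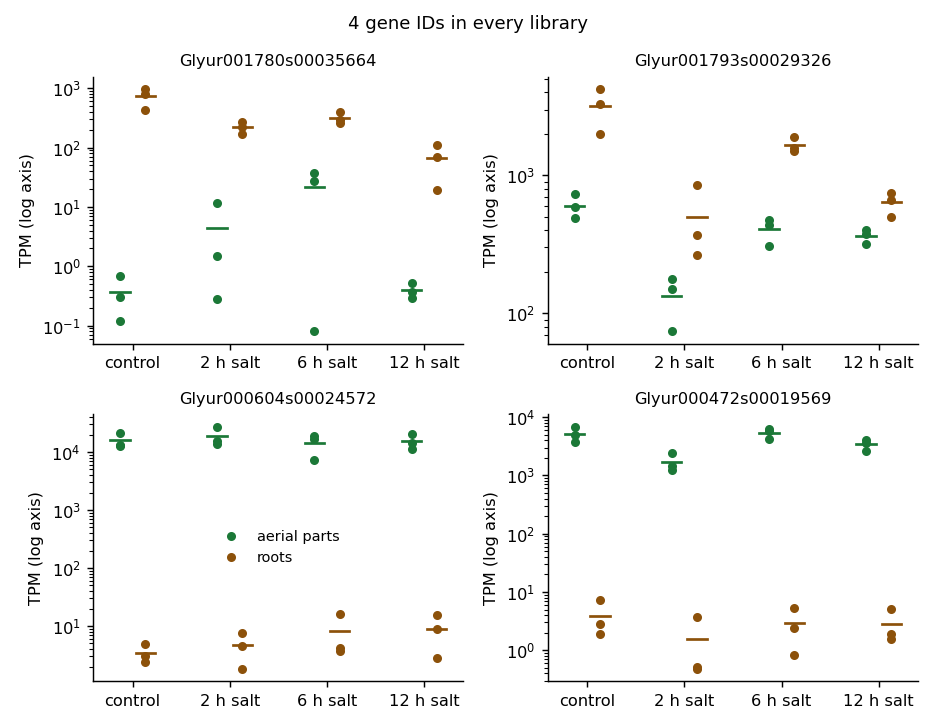
TPM (log axis) of the 4 IDs described above in every library, by time in salt, with aerial parts in green and roots in brown; points are libraries and bars are means of 3. The upper panels hold the root-higher IDs and the lower panels the aerial-higher IDs, and in the control columns no green point overlaps a brown one.

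Some IDs were listed at 0 in all 3 controls of one organ and at 1 TPM or more in all 3 of the other. There were 171 such IDs present in aerial parts, of which 165 were called, and 121 present in roots, of which 111 were called, against 31.5% of all genes tested. The IDs were picked on these same libraries, so such counts follow from the choice. No fold is given for them, since a listed 0 does not give a level. Most were of low level, with a median of the mean TPM of 8.84 in aerial parts and 6.87 in roots. The highest reached 3029 TPM in aerial parts and 458 TPM in roots. In the 9 salt libraries of the organ where they had been at 0, 40 of the 171 were again at 0 throughout, and 121 stayed under 1 TPM. The same was true of 16 and 47 of the 121 root IDs. All 3 libraries of at least 1 salt time reached 1 TPM in the other organ for 15 of the 171 and 14 of the 121. In the organ where they had been present, 90 of the 171 and 34 of the 121 stayed at 1 TPM or more in all 9 salt libraries. These IDs were picked at 0 in the controls of one organ and at 1 TPM or more in those of the other. A rise in the one or a fall in the other therefore follows in part from the choice.

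The organ difference was met again in libraries that share none with the controls. In the 18 salt libraries, averaged over the 3 times, 8168 of the 16718 genes (48.9%) were called between organs, a comparison with 9 libraries a side in place of 3. Of the 5272 genes called in controls, 4417 (83.8%) were called there in the same direction and 26 in the opposite one. The estimate of each gene's spread was shared by both comparisons. By direction, 85.6% of the aerial-higher and 82.2% of the root-higher genes were called again in the same direction. Of the 302 genes that differed by at least 32-fold in controls, 295 were. Over all genes tested the differences without and with salt correlated at 0.84, across genes and with no test. The median difference of the root-higher genes was 1.08 in salt, against 1.61 in the controls that chose them, and that of the aerial-higher genes -1.79 against -2.10. Values that chose a gene tend to be larger than those measured again.

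Whether the organ difference itself changed with salt was tested as roots minus aerial parts in salt, minus the same in controls. In the unpaired fit 93 genes were called, or 0.556% of those tested. Of these, 38 were higher in roots in controls, 32 were higher in aerial parts and 23 were not called there. The difference shrank or turned in salt for 30 of the 38 and for 28 of the 32. These genes were called on the same control difference that the test subtracts. A smaller difference in salt therefore follows in part from the choice, and the counts do not show that salt narrows organ differences. For 15 genes the direction turned and was called in both. The count depended on the fit, at 581 with controls paired in title order, a pairing that the labels do not state, 730 with library weights and 186 with a pseudocount of 5. It also depended on the control libraries, at 40 without aerial control 1, 164 without aerial control 2 and 50 without aerial control 3. The controls are of 0 h alone and are labelled with distilled water, where the salt plants stood in a nutrient solution, so salt, medium and time of day cannot be told apart here.

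**Figure D5:**
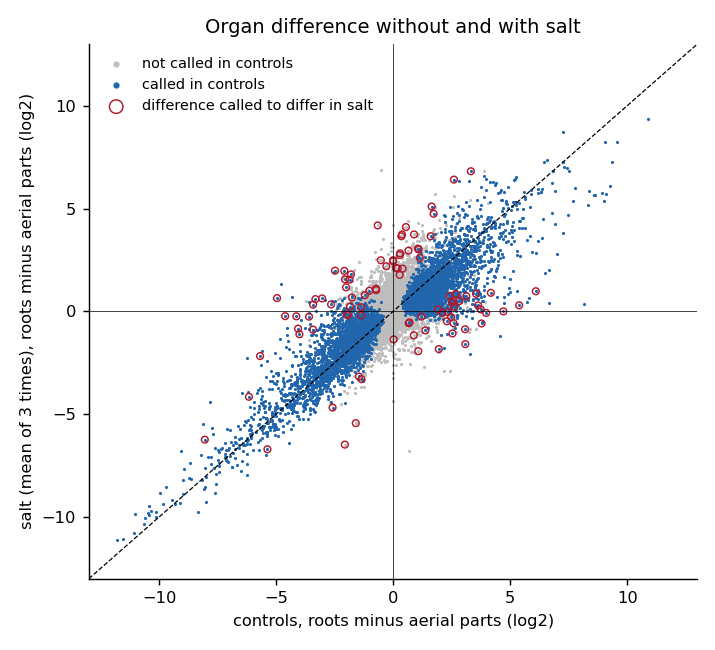
Difference between roots and aerial parts on the log2 scale in controls (horizontal axis) and averaged over the 3 salt times (vertical axis) for 16718 genes, with the 5272 called in controls in blue and the 93 whose difference was called to change with salt ringed in red. The dashed line marks equal differences, and most blue points lie where both differences have the same sign.

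For the remaining genes the data are of limited precision. Among the 11446 genes not called, 2672 had a 95% interval of the difference that lay within 2-fold either way. This bounds the difference of these genes only on the log2 scale of the fit. The value added to each TPM shrinks the difference of genes of low level, so their fold in TPM was not bounded. For the other 8774 genes not called, or 52.5% of all genes tested, the interval reached past 2-fold. A difference of that size was neither called nor bounded for them. The spread was alike in both organs, with a median SD over 3 libraries of 0.41 in aerial parts and 0.42 in roots on the log2 scale.

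Rows that share an ID could differ between the organs in opposite directions. The files hold 38135 rows, and 2751 IDs have several. Tested row by row, 5314 of 17519 rows (30.3%) were called. Of 767 IDs with at least 2 rows tested, 301 had a row called and 71 had at least 2, and in 7 of the 71 1 row was higher in roots and another in aerial parts. For 3 of the 7 the sum of the rows was still called. One of the other 4, Glyur000626s00022216, was chosen as an example after its values were seen. Its first row stood at 1.40, 0.81 and 2.25 TPM in aerial controls and at 7.19, 10.41 and 7.84 TPM in root controls (1.96, limma adjusted p = 1.86e-05). Its second row went the other way, from 19.16, 9.71 and 12.81 TPM in aerial controls to 5.29, 4.95 and 3.02 TPM in root controls (-1.44, limma adjusted p = 0.0229). Neither row overlapped between organs, and the summed ID was not called (-0.20, limma adjusted p = 0.72). The files do not say what separate rows of 1 ID stand for.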

How the data were processed

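Libraries of total RNA were made with an Illumina protocol, per the labels. The authors deposited 1 table per library with values in TPM, per the file headers. Among the tools in the submitters' processing notes are the trimmer fastp, the aligner HISAT2, the assembler StringTie, RSEM for quantification, and DESeq2 and edgeR. Their versions and the genome build were not given in the sources used here. With TPM alone the depth is unknown, and no interval for counting error is printed.

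Rows of 1 ID were summed. Log2(TPM + 1) was fitted for each gene that averaged 0.5 TPM or more over the 24 libraries, with limma 3.58.1 in R 4.3.3, with 8 groups of 3 libraries and a mean-variance trend (16 residual degrees of freedom), since 3 libraries alone give a poor estimate of the spread. Tests were two-sided and called at an adjusted p under 0.05. The plan named this test for TPM and another for counts, which was not used because the values are TPM. Library summaries went through exact permutation tests (scipy 1.17.1, Python 3.11.15). The code was tested on simulated data. The comparison, lists and examples were chosen with earlier results of these data known.

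At most 2 IDs a direction are given as examples of a difference. They had to be called, with groups that do not overlap, a mean of at least 10 TPM in the higher organ and no library at 0. One has the largest difference, and the other the highest mean among those at least 4-fold different. Lists of named genes were of no use without names for the IDs. Alternatives were the pseudocount, filter, scaling, libraries in the fit, a 2-fold minimum, library weights, no trend, the highest row per ID, blocks and each control left out in turn.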

Additional observations from a re-analysis of the deposited data

Results flagged for a closer look

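The organ difference itself was tested between salt and controls, and 93 genes passed limma's adjusted threshold. None of the 4 IDs given in full was among them, with limma adjusted p from 0.151 to 0.961. Of the 93, the difference was more towards roots in salt for 54 and more towards aerial parts for 39.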

How the results depend on the processing

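The count of 5272 was 1760 with a 2-fold minimum (677 higher in roots, 1083 in aerial parts, and 653 of the root genes at least 4-fold higher) and within 1.5 times of 5272 in the other 18 alternatives. A fit of the 6 control libraries alone called 3882 of 16304 genes, with 2001 higher in roots and 1881 higher in aerial parts. Left out in turn, the 6 controls gave 4387 to 4921. The 4 IDs kept their direction and call in all 19 alternatives. Aerial and root salt libraries share title numbers, and with these as a replicate block (within-pair correlation 0.331) 5258 genes were called. Control titles share no number. Paired by title order, a pairing the labels do not state, controls had residual correlations of 0.229 to 0.323, and as a block gave 6532 genes. Other pairs had -0.205 to -0.0204. Residuals were taken from the mean of each group, so the negative values follow in part from the positive ones and are no separate evidence of pairing. The numbers at least 4-fold higher in roots and in aerial parts were 476 and 687 with a pseudocount of 5, and those at least 32-fold higher 28 and 83, or 335 and 536 with a pseudocount of 0.1. The 93 genes whose difference changed with salt became 186 with a pseudocount of 5, 730 with library weights, 581 with controls paired by order and 2 with a 2-fold minimum, and 40 to 164 with 1 control left out. The 4417 genes called again in salt were 1473 with a 2-fold minimum. The 7 IDs with opposite rows were 14 with library weights, 11 with controls paired by order, 1 with a 2-fold minimum and 4 to 8 with 1 control left out. IDs at 0 in one organ numbered 43 (roots) and 78 (aerial parts) at a minimum of 5 TPM, and 18 and 48 at 10 TPM. The 10 highest IDs held 11.0% of listed TPM in aerial parts and 10.8% in roots, and the 1000 highest 64.1% and 62.5%. The cause of these changes was not tested. Depth is unknown and limits the lowest levels.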

Other observations

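Next to IDs with large organ differences in the list, a larger share of IDs was called in the same direction than over all such neighbours. An ID has a leading number that several IDs share and a second number, and the files do not say what either stands for. Among 7939 pairs of IDs next to each other with the same leading number, both tested, 17.9% of the IDs were called higher in roots and 14.6% higher in aerial parts. Next to IDs at least 32-fold higher in roots, 42 of 99 (42.4%) were called higher in roots and 5 (5.05%) higher in aerial parts. Next to IDs at least 32-fold higher in aerial parts, 66 of 223 (29.6%) were called higher in aerial parts and 26 (11.7%) higher in roots. Neighbours of all root-higher IDs were root-higher in 22.0% of cases, and neighbours of all aerial-higher IDs were aerial-higher in 19.5%. Each pair was counted from both sides, so an ID can enter these counts more than once, and the neighbours were not matched by level. This pattern was noticed in the data and has no test. Whether near-identical copies share reads was not tested.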
